A study of Equus caballus with 20 samples.

Results

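The miR-34 and miR-449 family was followed in extracellular vesicles of horse follicular fluid through the rows eca-miR-34b-3p, eca-miR-34b-5p, eca-miR-34c and eca-miR-449a (eca for Equus caballus, left out from here on), which are 4 of the 686 miRNA names in the table. These 4 were chosen by their low scaled reads at postdeviation against predeviation in these same libraries, so that contrast is described here without a test. The study sampled mares, 19 in number and 8 to 14 years old, with a normal reproductive tract. In every mare the follicles of at least 6 mm had been ablated on days 10 to 11 of the cycle, so each sampled follicle belonged to an induced wave. Fluid was drawn in vivo by transvaginal aspiration from follicles seen to be healthy and growing on ultrasound. The 5 groups were predeviation (18 to 20 mm), deviation (22 to 25 mm), postdeviation (26 to 29 mm), preovulatory (30 to 35 mm) and impending ovulation, which was set by signs of imminent ovulation and has no diameter in the labels. Each group held 4 libraries, and the labels do not say which mare gave which library, so at least 2 of the 20 libraries share a mare and the p-values below reflect only how these libraries spread.

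Extracellular vesicles are membrane-bound particles that carry RNA out of cells, and in follicular fluid they can come from granulosa, theca, cumulus or blood cells. The miR-34 and miR-449 miRNAs form a family by their shared seed, the short 5′ stretch through which a miRNA finds its targets. In mammals miR-34b and miR-34c are cut from one transcript that p53 can induce, miR-34a comes from a gene of its own that p53 also induces, and miR-449a sits in an intron of CDC20B. The family is abundant in multiciliated cells of the airway and oviduct and in male germ cells, and in mice its joint loss impairs cilia and fertility. MiR-34b-3p is the opposite arm of the hairpin that gives miR-34b-5p, and as such has another seed. The table names no arm for miR-34c and miR-449a.

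Values are scaled reads, that is reads multiplied by a factor that the authors set for each library, and 1 read was worth 7.04 to 36.5 scaled reads. Libraries held 27131 to 110130 reads and 171 to 264 detected miRNAs, with preovulatory 3 (27131 reads) and impending ovulation 2 (29862 reads) the shallowest. The 4 miRNAs together had 1572 of the 1457859 reads (0.108%). All 4 passed the filter on low values (4 or more libraries with 10 or more scaled reads), as did 264 miRNAs in all. In bulk vesicles, fewer particles from a cell type and less of a miRNA in each particle cannot be told apart. The sources used here do not give how reads that match several related mature miRNAs were assigned, so reads could be split between close relatives.

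MiR-34c was the bulk of the 4 miRNAs in these vesicles, and its level ran from 476 to 8303 scaled reads in predeviation fluid to nearly none at postdeviation. At predeviation the libraries held 1445, 8303, 989.6 and 476 scaled reads of miR-34c (replicates 1 to 4, mean 2803 ± 3688 SD). At deviation they held 13.1, 183, 977 and 806 (495 ± 469). At postdeviation they held 0, 10.6, 0 and 17.9 (7.12 ± 8.76), which is 2 reads among 260082. No postdeviation library reached the lowest predeviation library, while the deviation libraries were divided, a pair of them within the predeviation range and a pair below it. The preovulatory libraries held 32.7, 44.1, 109.5 and 42.2 scaled reads (57.1 ± 35.3), with library 3 set apart from the other 3 on 3 reads, and all were above every postdeviation library. At impending ovulation they held 283, 0, 165 and 1816 (566 ± 841), the widest relative spread of any stage for this miRNA.

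By means the order of miR-34c was predeviation, impending ovulation, deviation, preovulatory and postdeviation. By medians (1217, 224, 494, 43.2 and 5.29 in that order) deviation stood above impending ovulation. Neighbours in either order overlapped in their libraries except preovulatory and postdeviation. Between the abundant miRNAs of a library, miR-34c ranked from 21 (predeviation 2) to 81 (predeviation 4) in predeviation fluid, and from 128 to 190 in preovulatory fluid, counting from the highest value of that library.

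**Figure D1:**
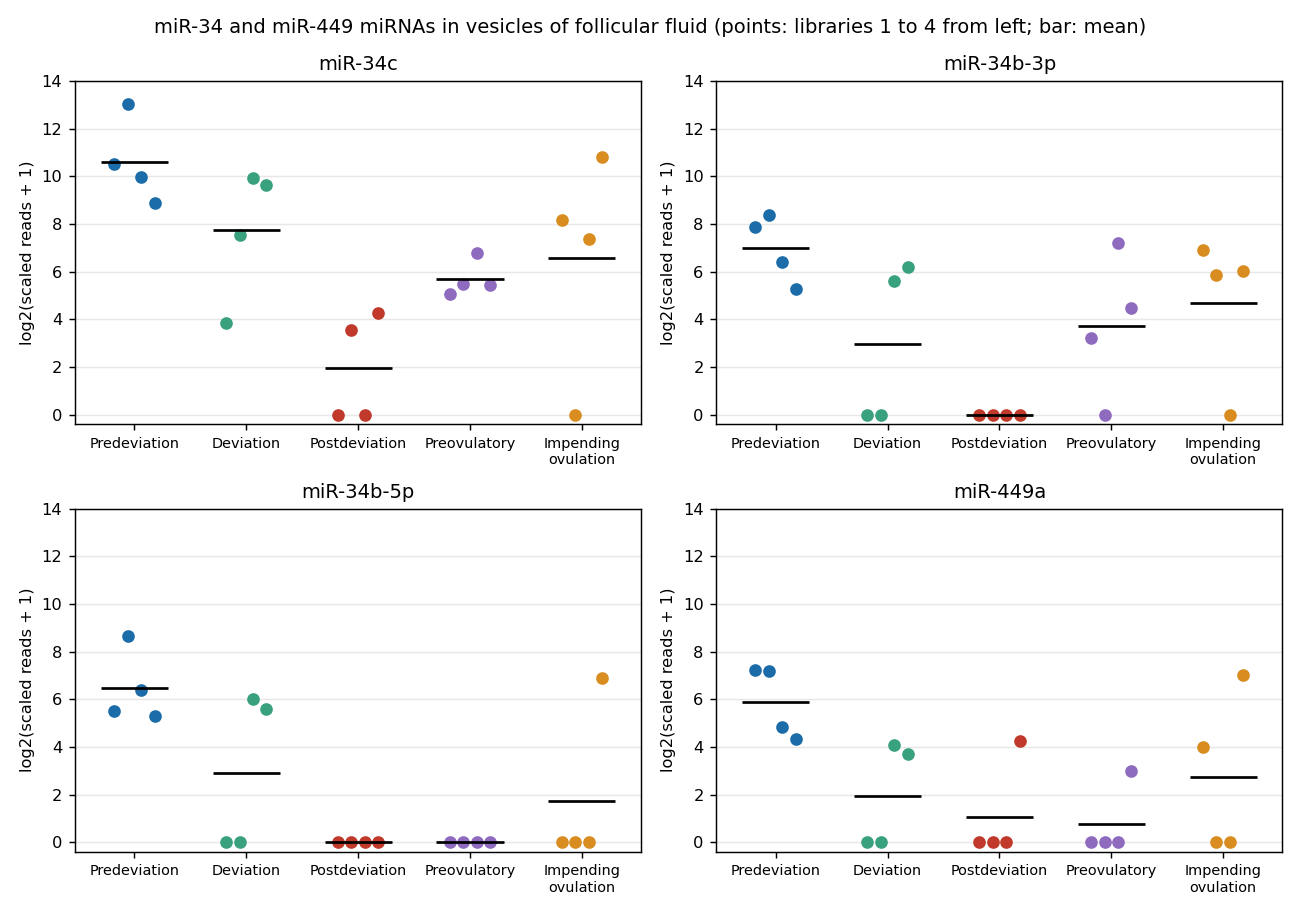
Each panel plots 1 miRNA, with the follicle stage on the x axis and log2(scaled reads + 1) on the y axis; points are the 4 libraries of a stage in replicate order and bars are their means. MiR-34c reached 8303 scaled reads in predeviation 2 and 1816 in impending ovulation 4, and both arms of miR-34b were at 0 in all 4 postdeviation libraries.

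MiR-34b, made from the same transcript as miR-34c, was detected on both arms in all predeviation libraries and on neither arm in any postdeviation library. Its 3p arm stood at 236, 333, 82.5 and 38.1 scaled reads at predeviation (172 ± 137). At deviation the first and second libraries were at 0 and the others at 47.3 and 71.1 (29.6 ± 35.5). These were the same deviation libraries that were high in miR-34c. Preovulatory values of miR-34b-3p were 8.17, 0, 146 and 21.1 (43.8 ± 68.7), and the value of 146 comes from 4 reads in the shallowest library. Impending ovulation values were 119, 57.0, 0 and 63.7 (60.01 ± 48.8). The 3p arm was thus seen in 3 of 4 libraries of each of the last 2 stages, which overlapped both predeviation and deviation.

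The 5p arm, which carries the family seed, was rarer. It was at 44.2, 401, 82.5 and 38.1 scaled reads at predeviation (142 ± 174), and at 0, 0, 63.1 and 47.4 at deviation (27.6 ± 32.5). It was at 0 in the 4 postdeviation and the 4 preovulatory libraries, and at impending ovulation in 3 of 4, with 117 in library 4. The 7 libraries with any miR-34b-5p were those with the most miR-34c: the lowest of them had 476 scaled reads of miR-34c and the highest of the other 13 had 283.

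MiR-449a was the scarcest of the 4, with 44 reads in all. At predeviation it was at 147, 147, 27.5 and 19.0 scaled reads (85.2 ± 71.6), with libraries 3 and 4 resting on 1 read each. At deviation it was at 0, 0, 15.8 and 11.9 (6.90 ± 8.13). Postdeviation held 1 read in library 4 (17.9), and preovulatory 1 read in library 4 (7.04). At impending ovulation the values were 14.9, 0, 0 and 127 (35.6 ± 61.6). In this miRNA too the deviation reads lay in libraries 3 and 4 and the reads of impending ovulation mostly in library 4.

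Summed over the 4 miRNAs, the family made up 0.172%, 0.852%, 0.104% and 0.0321% of the scaled reads of the predeviation libraries. The deviation libraries held 0.00139%, 0.0173%, 0.0940% and 0.0832%. At postdeviation the highest share was 0.00363%, and 2 libraries held no read of any of the 4. The preovulatory libraries held 0.00474%, 0.00461%, 0.0258% and 0.00909%. At impending ovulation the shares were 0.0492%, 0.00670%, 0.0162% and 0.227%. Single libraries carried much of this: predeviation 2 held 82.4% of the 1138 family reads of its stage and impending ovulation 4 held 82.3% of 243. Without predeviation 2 the predeviation mean of the summed family fell from 3202 ± 4023 to 1208 ± 651 scaled reads (n = 3), and without impending ovulation 4 that of impending ovulation fell from 691 ± 967 to 213 ± 185 (n = 3). For miR-34c alone these means without the same libraries were 970.1 ± 485 and 149 ± 142, and for miR-34b-5p 54.9 ± 24.1 and 0. The preovulatory mean of miR-34b-3p was 9.76 ± 10.6 without library 3.

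Every postdeviation library lay below every predeviation library for 4 of 4 miRNAs, and 4.92% of the 264 miRNAs did so. Since this contrast was used to choose the 4, nothing is read from that count. With libraries brought to equal totals it became 3 of 4, with miR-449a the exception, and the share of all miRNAs became 2.27%. The preovulatory libraries lay below all of predeviation for 3 of 4 (miR-34b-5p, miR-34c and miR-449a; 3.03% of all miRNAs), the deviation libraries for 1 of 4 (miR-449a; 1.14%) and those of impending ovulation for 0 of 4 (2.65%). These comparisons share the predeviation libraries, whose high values helped to choose the 4, so the counts are favoured in advance and are descriptions only. MiR-34c was the 1 miRNA of the 4 whose preovulatory libraries all lay above postdeviation, as 4.92% of all miRNAs did, and its low postdeviation values were likewise part of the choice.

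Ratios of the summed reads, adjusted by the authors' scaling factors, give the size of these differences with counting error only (95% intervals). They leave out the spread between libraries and any error in those factors. Against plain read totals of a stage (318894 at predeviation and 254867 at impending ovulation) the ratios of the family would be smaller. The family here is the sum of the 4 chosen miRNAs and leaves out miR-34a. That miRNA had 18 reads at predeviation, 7 at deviation, 4 at postdeviation, 47 at preovulatory and 20 at impending ovulation. Ratios with miR-34a included would be smaller and were not computed. The sum of the 4 had 3 reads at postdeviation against 1138 at predeviation, a ratio of 411 (140 to 1996). Preovulatory fluid had 25 reads, 63.3-fold lower than predeviation (42.6 to 98.2), deviation 163 reads, 7.96-fold lower (6.75 to 9.43), and impending ovulation 243 reads, 4.98-fold lower (4.33 to 5.74). For miR-34c alone the preovulatory level was 87.5-fold below predeviation (53.6 to 154). MiR-34b-5p, with 0 preovulatory reads, was at least 22.7-fold lower there and at least 17.7-fold lower at postdeviation, where the bound takes 3 reads for the whole stage. MiR-34b-3p, with 8 preovulatory reads, was 9.56-fold lower (4.53 to 23.2). Much of these sizes rested on predeviation 2. Without it and impending ovulation 4, chosen after their values were seen, 200 predeviation reads of the family remained, and the ratios were 119 (40.2 to 583) at postdeviation, 18.4 (12.1 to 29.1) at preovulatory, 2.31 (1.87 to 2.86) at deviation and 5.37 (3.85 to 7.65) at impending ovulation. MiR-34b-5p was then at least 6.12-fold lower at preovulatory and at least 4.77-fold lower at postdeviation, and its 8 deviation reads stood against 8 at predeviation (1.88-fold lower, 0.616 to 5.75).

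On the log2(scaled reads + 1) scale, with all 20 libraries in 1 limma fit, the preovulatory difference of miR-34c from predeviation was -4.89 ± 1.70 (SE), that at deviation -2.86 ± 1.70 and that at impending ovulation -4.00 ± 1.70. For miR-449a they were -5.14 ± 1.64, -3.96 ± 1.64 and -3.15 ± 1.64. For miR-34b-3p they were -3.27 ± 1.80, -4.04 ± 1.80 and -2.29 ± 1.80. All 4 miRNAs had a negative fitted difference from predeviation at every later stage, a direction that their choice by high predeviation values favours and from which nothing is read. The median over the 264 miRNAs was -0.14 at deviation, -0.31 at postdeviation, 0.04 at preovulatory and -0.39 at impending ovulation. With libraries brought to equal totals those medians moved to 0, 0.02, 0.48 and 0.00, and the 4 miRNAs stayed below predeviation. Without impending ovulation 2, the library with no miR-34c read, the difference of miR-34c at impending ovulation was -1.81 in place of -4.00, and without impending ovulation 4 it was -5.42. That of miR-34c at deviation was -1.55 without deviation 1. For miR-34b-3p it was -0.72 at impending ovulation without library 3 of that stage, and -2.03 at preovulatory without library 2. For miR-449a it was -4.56 at impending ovulation without library 4.

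**Figure D2:**
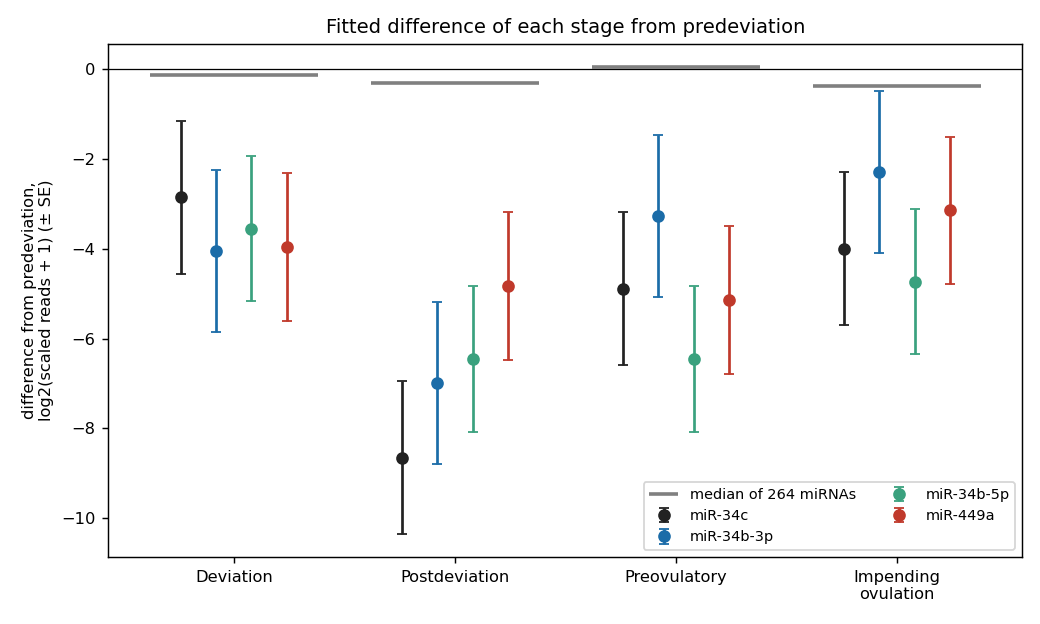
The y axis gives the fitted difference of each later stage (x axis) from predeviation on the log2(scaled reads + 1) scale; points are the 4 miRNAs, error bars are the SE, and grey bars are the median of all tested miRNAs. The points of miR-34c run from -8.65 at postdeviation to -2.86 at deviation, and sizes where a stage held no reads (miR-34b at postdeviation, miR-34b-5p at preovulatory) depend on the pseudocount.

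Deviation, preovulatory and impending ovulation lie outside the contrast that picked the family, so these stages were tested against one another. The test and its intervals still take their spread from all 20 libraries, including those that picked the family. Among these, both arms of miR-34b had an SD of 0 at postdeviation. The limma F test over the 3 stages passed for 0 of the 4 miRNAs at an adjusted p under 0.05, where 0.379% of all miRNAs passed (1 of 264, miR-204b, named after its value was seen). At an unadjusted p under 0.05 it was also 0 of 4, against 15.9% of all (42 of 264). MiR-34b-5p reached 10 scaled reads in 3 libraries outside predeviation, so it passed the filter of 4 libraries only through the stage where it was high. The limma adjusted p was 0.519 for miR-34b-5p, 0.730 for miR-449a, 0.743 for miR-34c and 0.809 for miR-34b-3p. EdgeR's quasi-likelihood test on the recovered reads gave miR-34c an unadjusted p of 0.0188 and an adjusted p of 0.167, and DESeq2 0.0156 and 0.0842. For miR-449a edgeR gave 0.0401 and 0.221. In this edgeR test, with TMM scaling, 54 of the 264 miRNAs had an unadjusted p under 0.05. Over all settings the adjusted p of miR-34c lay between 0.0842 and 0.896.

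The intervals of these differences were wide, and most left large changes within reach in both directions. For miR-34c the preovulatory level differed from deviation by -2.04 on the log2 scale (95% interval -5.56 to 1.49), and impending ovulation from preovulatory by 0.89 (-2.63 to 4.41). For miR-34b-5p the preovulatory minus deviation difference was -2.90 (-6.24 to 0.44) and for miR-449a -1.19 (-4.58 to 2.21). MiR-34b-3p differed by 0.77 (-2.96 to 4.51), and by -0.71 after quantile normalization. The difference of miR-34c between impending ovulation and deviation, -1.15 (-4.67 to 2.38), turned to 1.05 without impending ovulation 2 and to 0.46 with edgeR under TMM scaling, and that between impending ovulation and preovulatory turned to -0.52 without impending ovulation 4.

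Among the 4 miRNAs, miR-34c led in reads at each stage, at postdeviation by 2 reads to 1. MiR-34a, which is not among the 4, had more reads than miR-34c at preovulatory (47 against 16) and postdeviation (4 against 2). The pooled shares of miR-34c rest mostly on predeviation 2 and impending ovulation 4. It gave 88.5% of the reads of the 4 at predeviation (exact 95% interval 86.5 to 90.3), 88.3% at deviation (82.4 to 92.8) and 83.5% at impending ovulation (78.3 to 88.0). At preovulatory it gave 16 of 25 reads, 64% (42.5 to 82.0). MiR-449a gave 2.37% (1.57 to 3.43) at predeviation and 5.35% (2.88 to 8.97) at impending ovulation. Libraries of a stage differed: predeviation 1 held 9.8 reads of miR-34c for each read of miR-449a and predeviation 2 held 56.5, and for each read of miR-34b they held 5.16 and 11.3. Impending ovulation 4 held 14.3 and 10.1. Whether the make-up differs between stages was not tested. Reads carry no molecular identifiers, so all intervals here cover counting error only.

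The arms of miR-34b, which come from one hairpin, were counted against each other. The 5p arm gave 49 of 104 miR-34b reads at predeviation (47.1%, exact interval 37.2 to 57.2), 8 of 17 at deviation (47.1%, 23.0 to 72.2) and 11 of 27 at impending ovulation (40.7%, 22.4 to 61.2). At preovulatory it gave 0 of 8 reads, which allows up to 36.9% by the same method. Libraries differed within a stage: the 5p arm gave 3 of 19 reads in predeviation 1 (15.8%, 3.38 to 39.6) and 41 of 75 in predeviation 2 (54.7%, 42.7 to 66.2). At impending ovulation, library 1 had 0 of 8 and library 4 had 11 of 17 (64.7%, 38.3 to 85.8). In 5 libraries, all preovulatory or at impending ovulation, the 3p arm was seen without the 5p arm, with 18 reads in all.

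At predeviation, deviation and impending ovulation, miR-34b-5p and miR-449a were mostly higher in the libraries with more miR-34c. At postdeviation and preovulatory, miR-34b-5p was at 0 throughout and miR-449a had 1 read per stage. By r of deviations from the stage means, miR-34b-3p followed miR-34c less closely. Over the 20 libraries Spearman's rho with miR-34c was 0.84 for miR-34b-5p, 0.79 for miR-449a and 0.69 for miR-34b-3p, given as a description since the stage pattern helped to choose them. Pearson's r on the log2 scale was 0.79, 0.76 and 0.64. For deviations from the stage means r was 0.65, 0.72 and 0.31. At impending ovulation miR-34b-3p was present in library 2, where miR-34c was at 0, and absent from library 3, where miR-34c was at 165. Without predeviation 2 and impending ovulation 4, chosen after their values were seen, rho over the 18 others was 0.78, 0.72 and 0.62. Those rho values run across stages and so keep the stage pattern. The r of deviations from the stage means was not taken without these libraries. These libraries share their depth and scaling, and many values rest on 1 to 4 reads.

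**Figure D3:**
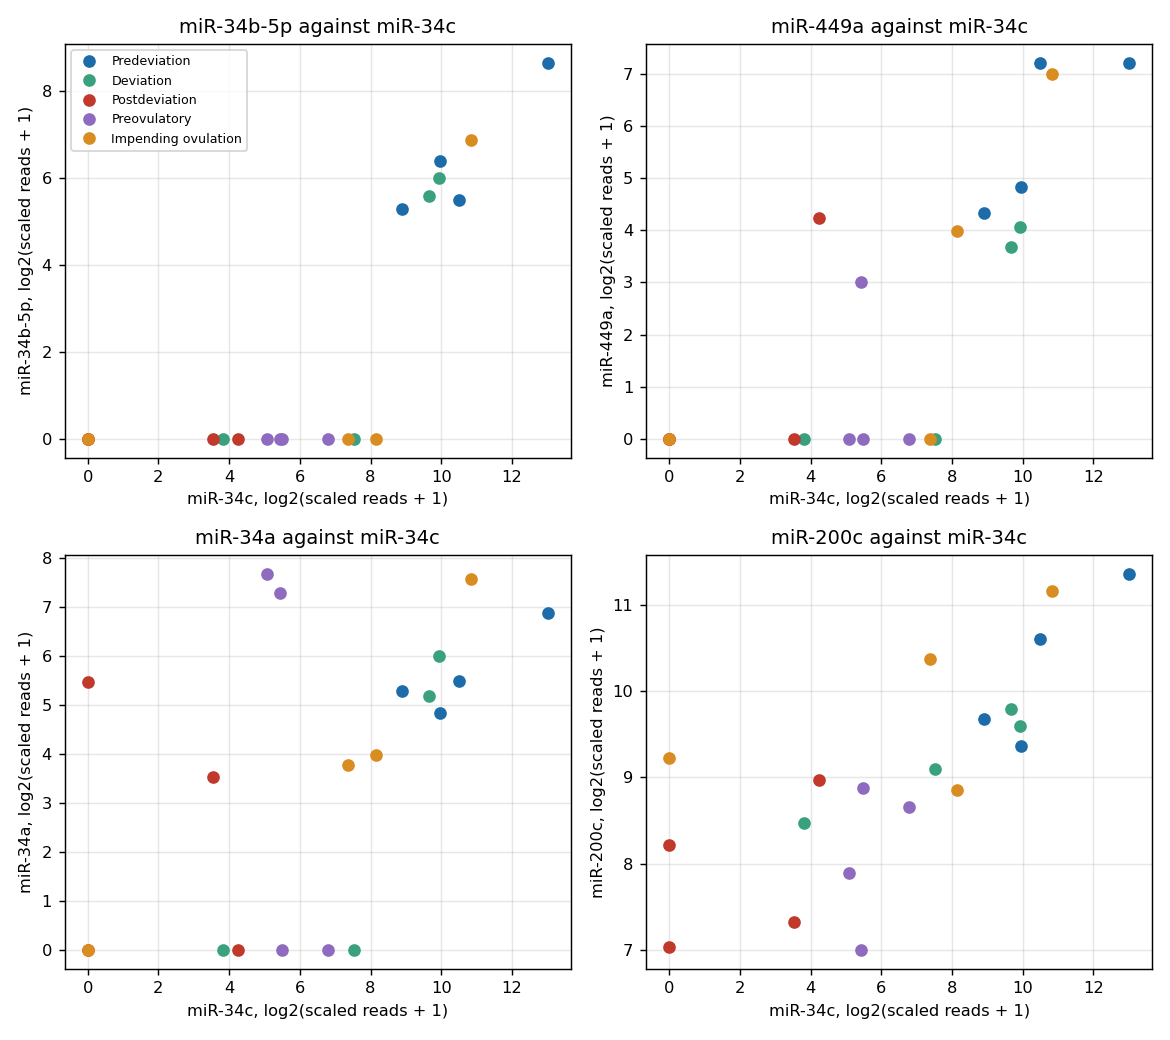
Each point is 1 of the 20 libraries, coloured by stage, with miR-34c on the x axis and another miRNA on the y axis, both as log2(scaled reads + 1). MiR-34b-5p appears in the 7 libraries with at least 476 scaled reads of miR-34c, whereas miR-34a is high in preovulatory 1 and 4, where miR-34c was at 32.7 and 42.2.

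The table lists 2 further names of the family. MiR-449b was listed at 0 in all 20 libraries. MiR-34a, the p53-induced member with its own gene, was at 44.2, 117, 27.5 and 38.1 scaled reads at predeviation (56.8 ± 41.0), and at 0, 0, 63.1 and 35.6 at deviation (24.7 ± 30.6). At postdeviation it was at 43.2, 10.6, 0 and 0 (13.4 ± 20.4). At preovulatory it was at 204, 0, 0 and 155 (89.8 ± 106), with 47 reads against 16 of miR-34c, while predeviation held 18 reads against 1007. At impending ovulation it was at 14.9, 0, 12.7 and 191 (54.7 ± 91.2). Over the 20 libraries rho of miR-34a with miR-34c was 0.50, below the 0.69 of miR-34b-3p, which the choice by stage favours. For deviations from the stage means r was 0.45, against 0.31 for miR-34b-3p, 0.65 for miR-34b-5p and 0.72 for miR-449a. MiR-34a shared high values with miR-34c at predeviation 2, impending ovulation 4 and deviation 3 and 4. It was also high at preovulatory 1 and 4, where miR-34c was not. Its F test over deviation, preovulatory and impending ovulation did not pass (limma adjusted p = 0.914), and its postdeviation libraries overlapped predeviation. Whether its course differs from that of miR-34c was not tested.

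The tested miRNAs with a pattern most like the summed family over the 20 libraries began with miR-200c. This miRNA, of a family that keeps epithelial cells from turning mesenchymal, had rho 0.81, and its cousin miR-200b 0.71. MiR-96, of the miR-183 cluster of sensory and other epithelia, had 0.77. MiR-21, which luteinizing hormone raises in granulosa cells, had 0.67, miR-221 had 0.65, and miR-542-3p, with 30 reads in all, 0.61. At the other end stood miR-483 from an intron of IGF2 (-0.77), miR-215 (-0.73) and miR-217 (-0.63). Without predeviation 2 and impending ovulation 4 the values were 0.74 for miR-200c, 0.68 for miR-96, 0.60 for miR-200b, 0.62 for miR-21, 0.58 for miR-221 and 0.50 for miR-542-3p. All these rho values hold the fall from predeviation to postdeviation by which the family was chosen. For deviations from the stage means r was 0.61, 0.24, 0.50, 0.64, 0.73 and 0.40 in the same order. The summed scaled reads of a library themselves had rho 0.55 with the family.

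MiR-200c had its highest library of predeviation and of impending ovulation where the family had, but did not follow it in every stage. It stood at 1563, 2634, 659.7 and 819 scaled reads at predeviation, so its highest library was also predeviation 2. At deviation it was at 355, 548, 772 and 889, higher in libraries 3 and 4, as the family was. At preovulatory it was at 237, 470, 402 and 127, whereas the family was highest in library 3 (256). At impending ovulation it was at 462, 598, 1333 and 2294, again highest in library 4. There libraries 1 to 3 rose in miR-200c, while miR-34c stood at 283, 0 and 165 in them. MiR-96 stood at 413, 480, 55.0 and 133 at predeviation and at 0, 57.0, 139.7 and 765 at impending ovulation. Its 0 was in impending ovulation 1, where the family sum was 418, above libraries 2 and 3. Unlike miR-34c, miR-200c kept 130 to 502 scaled reads at postdeviation.

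**Figure D4:**
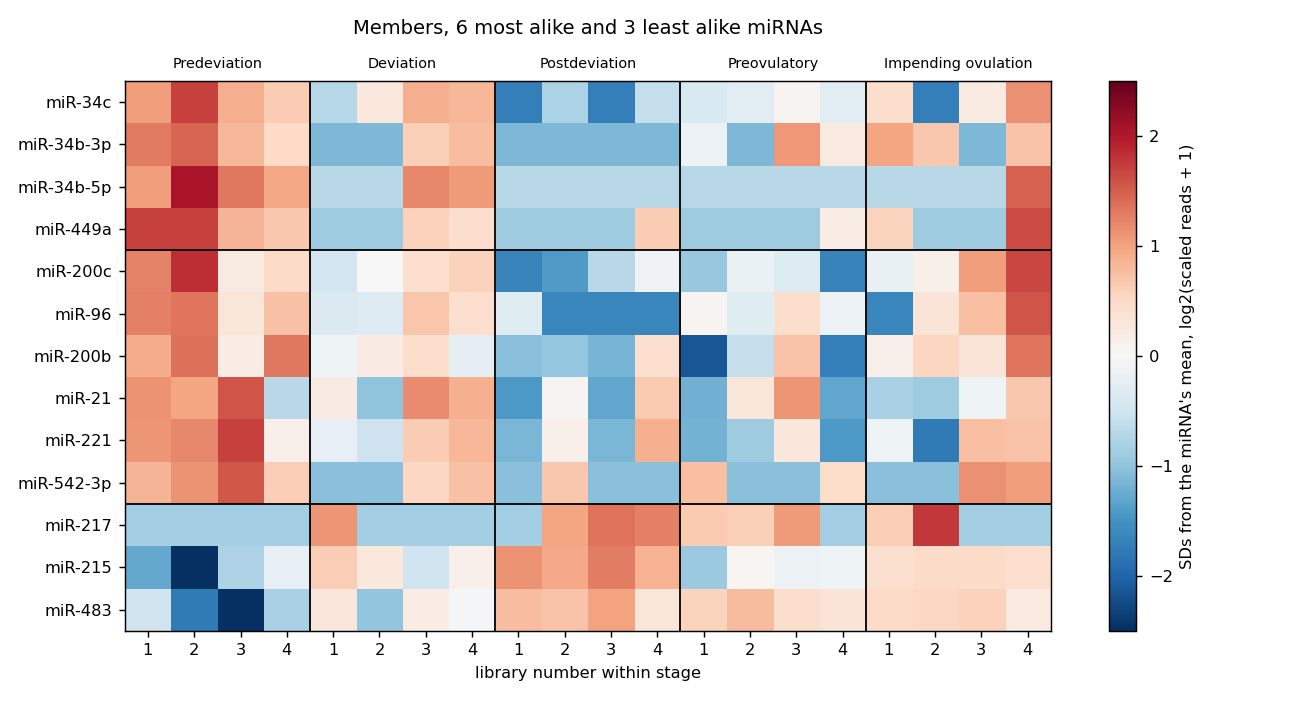
Columns are the 20 libraries by stage and rows are the 4 miRNAs, the 6 miRNAs most like their sum and the 3 least like it; colour is the distance from the mean of that miRNA in SDs of log2(scaled reads + 1). Predeviation 2 and impending ovulation 4 are high for the 4 miRNAs and for miR-200c, with 2634 and 2294 scaled reads of miR-200c.

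Other lists were set beside the family by the same counts, with no set test. Of all miRNAs, 4.92% lay wholly lower and 3.41% wholly higher at postdeviation than at predeviation. Of 11 tested miRNAs known to respond to p53 in other mammals, 0 passed the F test over 3 stages, 1 lay wholly lower at postdeviation than at predeviation (miR-200c) and 2 wholly higher (miR-192 and miR-215). Their median difference there was -0.79, against -6.72 for the 4 miRNAs, whose choice fixes that size, and -0.31 for all miRNAs. In the miR-200 family 1 of 5 was wholly lower (miR-200c), with miR-200b the most abundant, and in the miR-183 cluster 1 of 3 (miR-96), with miR-183 the most abundant at 1231 ± 638 scaled reads at predeviation and 906 ± 399 at postdeviation. Of 6 tested granulosa and gonadal somatic miRNAs 1 was wholly lower, miR-132 (66.4 ± 38.9 against 8.08 ± 9.44), which luteinizing hormone also induces, and the most abundant, miR-21, overlapped.

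Markers of other cell types were read in the same libraries. Of the multiciliated markers that are not among the 4, miR-34a was present and miR-449b was at 0. Summed miR-200 family reads were 4426 to 11965 scaled reads in predeviation fluid and 1894 to 6308 at postdeviation, with preovulatory libraries between 1111 and 6899. At impending ovulation they were 3803 to 9367. Predeviation 2 and impending ovulation 4 were the highest of their stages. Predeviation 2 was also the highest of its stage for stratified epithelium (2115), endothelial (11064) and smooth muscle markers (93390). For leukocyte markers it was barely the highest (4582, against 4541 in predeviation 1). It was the lowest for red blood cell (12435) and liver markers (2888). For the granulosa and gonadal list (204071) and the miR-183 cluster (3388) it was not the highest. Impending ovulation 4 was the highest of its stage for smooth muscle markers (50508), the granulosa and gonadal list (160933) and the miR-183 cluster (5034). It was the lowest for red blood cell (14337) and striated muscle markers (1912). Leukocyte markers, 7 of 7 detected, ran from 3024 to 4582 at predeviation and from 705 to 1947 at postdeviation without overlap. MiR-146b-5p, the most abundant of them (2884 ± 611 and 936 ± 454), was the 1 marker of the 7 without overlap, and the other 6 overlapped. Red blood cell markers overlapped (12435 to 27037 and 9081 to 23369), as did striated muscle (935 to 9137 and 1555 to 5412) and the liver marker miR-122 (2888 to 16333 and 6423 to 20877). Of 8 pluripotent and germ cell names 5 were at 0 throughout, and the sum stayed at or below 181 scaled reads. The part of these cell types in the family's course was not tested.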

How the data were processed

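Small RNA of follicular fluid vesicles, pelleted by ultracentrifugation, was sequenced from TruSeq Small RNA libraries, per the labels' protocols. The submitters' processing notes name bcl2fastq, Bowtie2 2.2.2, DESeq2 and the build EquCab3.0, without a role or order. The authors' deposited values, named CPM, are a scaled read signal: column sums ran from 774632 to 1778185, and 100% of values were whole multiples (tolerance 1e-06) of the smallest value in the column, by which whole reads were recovered. In postdeviation 2, fewer low values were available to judge this. The sources used here do not say how the factor was chosen.

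Values as log2(value + 1) were tested in limma 3.58.1 under R 4.3.3, with its trend option, all 20 libraries and a mean per stage, for 264 miRNAs with at least 10 in at least 4 libraries, two-sided, with Benjamini-Hochberg adjustment over all of them (threshold 0.05). Fold changes of scarce miRNAs on this scale depend on the pseudocount. Alternatives included edgeR 4.0.16 and DESeq2 1.42.0 on recovered reads. The scripts were tested on simulated data. Every replicate pair differed by more than counting noise (chi-square over degrees of freedom at least 15.6). The 4 miRNAs, the lists and the tests were chosen with earlier results of these data known. Named miRNAs are the 4, other miR-34 and miR-449 names, the 6 most and 3 least alike by Spearman's rho, and from each list those without overlap and the most abundant. No genome or miRNA sequence was used here.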

Additional observations from a re-analysis of the deposited data

Results flagged for a closer look

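Of 22 groups of 4 libraries with unequal values, over the 4 miRNAs and their sum, 11 had a library set apart from the other 3 by a gap larger than Dixon's 95% limit. Chance would flag about 1 group in 20 only if values were normally distributed, and raw scaled reads with many values at 0 are not. These groups are also not independent, since related miRNAs were read in the same libraries. Groups mostly at 0 are flagged by a single read, so nothing is read from the count of flags.

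Predeviation 2 stood above its stage with 8303 scaled reads of miR-34c, 401 of miR-34b-5p and 9184 of the sum of the 4 miRNAs. Impending ovulation 4 did so with 1816 of miR-34c, 117 of miR-34b-5p and 127 of miR-449a. Preovulatory 3, the shallowest library, did so with 109.5 of miR-34c (3 reads), 146 of miR-34b-3p (4 reads) and 256 of the sum (7 reads). For miR-449a, postdeviation 4 at 17.9 and preovulatory 4 at 7.04 stood apart from libraries at 0 with 1 read each.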

How the results depend on the processing

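The 28 stage differences of the 4 miRNAs had no test. Under all settings and without any single library, all 4 stayed below predeviation at each later stage. The F test of the 4 miRNAs stayed above the threshold under every setting that gave an adjusted p. DESeq2 gave none for miR-34b-5p and miR-449a. The count of all miRNAs past the F test, 1 in the main fit, became 0 with only the stages compared (35 at unadjusted p under 0.05), without the intensity trend (35), without both libraries under 40000 reads (38) and with the replicate block (41). It was 1 with edgeR (54 unadjusted with TMM), 22 with DESeq2, of 156 with an adjusted p, and 0 to 5 without single libraries, the 5 without impending ovulation 4. The shared replicate numbers were not treated as a pairing in the main fit. The r of same-numbered deviations was over 0.1 in 4 of 40 pairs (median -0.04, highest 0.30). Pairs with different numbers were not compared, so whether single pairs share a mare cannot be told. Of all miRNAs, 13 lay wholly lower and 9 wholly higher at postdeviation than at predeviation, with equal totals 6 and 17, and without single libraries 16 to 27 and 9 to 21 (wholly lower 20, 24, 27 and 22 without predeviation 1, 3, 4 and postdeviation 4; wholly higher 21, 15 and 14 without predeviation 4, postdeviation 1 and 2). Depth limits the rarest values: in a library, 3 reads were worth 21.1 to 109.5 scaled reads.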
